A study of Rattus norvegicus with 6 samples.

Results

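The genes described here encode neurotrophins, the neurotrophic factor GDNF and the receptors of both families, and they were followed in the condylar cartilage of rats with and without an experimental osteoarthritis of the temporomandibular joint. They were chosen by symbol, as a list of 8 genes: the ligands Bdnf, Ntf3 and Gdnf and the receptors Ngfr, Ntrk2, Ntrk3, Gfra1 and Gfra2. A protein-coding gene was found for 7 of them among the 44746 genes of the deposited gene table, and Gfra1 was not analysed here. The UAC group was made of female Sprague-Dawley rats in which a unilateral anterior crossbite, an altered bite that puts abnormal load on the joint, had been in place for 8 weeks. The CON group was made of control female rats of the same strain, also collected at 8 weeks, and all rats were 6 weeks old at the start. Total RNA of the cartilage was sequenced after removal of ribosomal RNA, with 3 libraries per group, and the study used 18 rats. How many rats went into each library is not given in the sources used here, so the p values measure the spread between libraries.

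Neurotrophins are secreted proteins that keep neurons alive and guide the growth of their axons. They are made as precursors, cut to their mature form, and bound by the Trk receptor tyrosine kinases, among which Ntrk2 is the receptor of BDNF and Ntrk3 that of neurotrophin-3, while Ngfr, the p75 neurotrophin receptor, binds all of them with lower affinity and binds their precursors together with sortilin. GDNF and its relatives act through the kinase Ret, which they reach only after binding a coreceptor of the Gfra family that is anchored to the cell surface by a lipid. In joints these factors are best known for their part in pain and in the growth of sensory nerve fibers.

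The libraries held 71524713 to 86523541 gene counts in UAC and 80960444 to 85923949 in CON. Levels are given in FPKM, fragment counts scaled by transcript length and sequencing depth, a scale meant to make genes of different length comparable. Counts and FPKM did not always go together. In UAC replicate 1 Runx2 had 118749 counts at 11.0 FPKM and Sort1 10492 counts at 19.5 FPKM. The order of genes by level is therefore approximate. Chondrocyte markers were abundant in every library, with a summed level of 1704 to 3169 FPKM in UAC and 2050 to 3103 FPKM in CON over 14 genes. UAC replicate 1 correlated least with the other libraries across genes (mean Pearson r = 0.894, against 0.899 to 0.905 for the other 5), and its skeletal muscle markers summed to 273 FPKM, against 27.9 to 177 FPKM elsewhere.

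All 7 genes were weakly expressed. Ntrk2 had the highest mean level over the 6 libraries, 0.704 FPKM, and was followed by Gfra2 with 0.678 FPKM, Ntrk3 with 0.450 FPKM, Ngfr with 0.145 FPKM, Bdnf with 0.0745 FPKM and Gdnf with 0.0164 FPKM. Ntf3 was listed at 0 counts throughout. The ranges over the libraries overlapped between each gene and the next in this order, so no neighbours were separated beyond their spread. Ntrk2, at the top, lay above 41.8% of all protein-coding genes of the table. The 3 receptors Ntrk2, Gfra2 and Ntrk3 thus stood apart from the 3 ligands, whose highest value in any library was 0.118 FPKM, the level of Bdnf in UAC replicate 1.

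**Figure D1:**
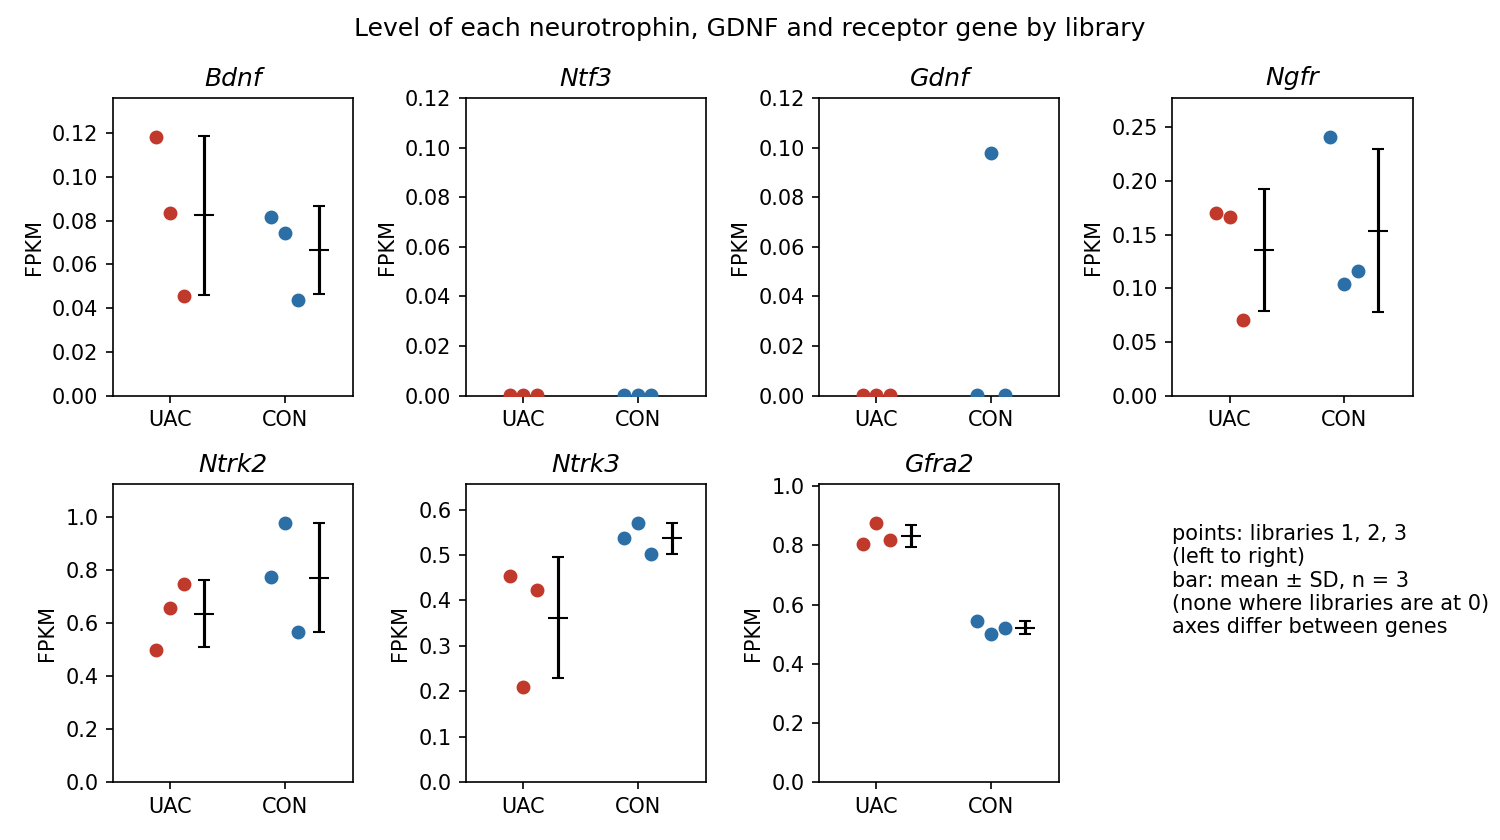
Level of each gene in FPKM (vertical axis, starting at 0 and scaled per gene) in the 3 UAC and the 3 CON libraries, one point per library, with the mean and SD as a bar where no library was at 0. The UAC points of Gfra2 lie above all CON points and those of Ntrk3 below all CON points, whereas the groups overlap for Bdnf, Ngfr and Ntrk2.

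Among the ligands, Bdnf, the brain-derived neurotrophic factor, was detected in every library, at 22 to 58 counts. It had 0.118, 0.0836 and 0.0455 FPKM in UAC replicates 1, 2 and 3, from 58, 49 and 22 counts. In CON it had 0.0815, 0.0743 and 0.0439 FPKM, from 47, 41 and 25 counts. The groups overlapped almost entirely, and the spread inside each was wider than the distance between their means of 0.0825 ± 0.0365 FPKM in UAC and 0.0666 ± 0.0199 FPKM in CON (SD, n = 3 each, as for all means below). Bdnf lay under the minimum mean of 0.1 FPKM set for the main test. In the fit without that minimum its log2 fold change was 0.27 (SE, the standard error, 0.48, edgeR adjusted p = 0.903), and it was -0.050 without UAC replicate 1. Bdnf (ENSRNOG00000047466) lies on chromosome 3 from 100768637 to 100819210 in the coordinates of the gene table, whose genome build is not given in the sources used here.

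Ntf3, which encodes neurotrophin-3, had 0 counts in all 6 libraries. A count of 0 allows up to 3 counts per library, which is 0.0347 to 0.0419 CPM (counts scaled to library size) in UAC and 0.0349 to 0.0371 CPM in CON, so a lower level was not detectable at this depth. Gdnf, the glial cell line-derived neurotrophic factor, had 0 counts in each UAC library and in CON replicates 1 and 3, and 7 counts (0.0980 FPKM) in CON replicate 2 alone. These limits cover counting error only. No group difference can be read for either ligand.

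Ngfr, the p75 receptor, is best known in Schwann cells after nerve injury and as a surface marker of marrow stromal cells. It had 0.170, 0.166 and 0.0702 FPKM in the UAC libraries and 0.241, 0.104 and 0.116 FPKM in the CON libraries. Both groups contained 1 library that lay apart from the other 2, the third in UAC, which was low, and the first in CON, which was high. The log2 fold change was -0.23 (SE 0.51, edgeR adjusted p = 0.928), 0.079 without UAC replicate 3 and 0.24 without CON replicate 1. The sign for Ngfr thus turned with single libraries, which held 18 to 74 counts. Ngfr (ENSRNOG00000005392) lies on chromosome 10 from 83389847 to 83408061.

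Ntrk2, which encodes the BDNF receptor TrkB, had 0.50, 0.658 and 0.748 FPKM in UAC, from 426, 667 and 629 counts. In CON it had 0.773, 0.978 and 0.566 FPKM, from 779, 933 and 563 counts. The groups overlapped, with CON replicate 3 below UAC replicates 2 and 3. The log2 fold change was -0.33 (SE 0.26, edgeR adjusted p = 0.739), -0.16 without UAC replicate 1 and -0.094 without CON replicate 2. Ntrk2 (ENSRNOG00000018839) spans chromosome 17 from 5933729 to 6244676. Gene counts do not separate the receptor with its kinase from the truncated forms that the locus is known to make. A single circular RNA of the table lay inside Ntrk2, circRNA5818 on chromosome 17 from 6203226 to 6211699, and it was seen as 1 junction read in UAC replicate 3 and 0 in the other 5 libraries.

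Ntrk3, the neurotrophin-3 receptor TrkC, stayed below the lowest CON value in every UAC library. It had 0.454, 0.209 and 0.423 FPKM in UAC, from 111, 61 and 102 counts, and 0.539, 0.571 and 0.502 FPKM in CON, from 156, 156 and 143 counts. CON was tight (0.537 ± 0.0341 FPKM), while UAC was spread out (0.362 ± 0.133 FPKM) by its second replicate. The log2 fold change of -0.62 (SE 0.32) came with an edgeR p of 0.0920 before and 0.599 after adjustment, so the difference did not pass the test. Without UAC replicate 2 it was -0.35, and without UAC replicate 1 it was -0.79. Ntrk3 (ENSRNOG00000018674) spans chromosome 1 from 139890560 to 140262503.

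Gfra2, the coreceptor that binds neurturin with highest affinity, stayed above the highest CON value in every UAC library. Its levels were 0.806, 0.875 and 0.818 FPKM in UAC, from 179, 232 and 180 counts. In CON they were 0.543, 0.501 and 0.522 FPKM, from 143, 125 and 136 counts. Both groups were tight, at 0.833 ± 0.0371 FPKM in UAC and 0.522 ± 0.0211 FPKM in CON, and the gap between them was several times their SD. The log2 fold change of 0.63 (SE 0.18) corresponds to a 1.55-fold level, with an unadjusted p of 0.00974 from edgeR. After adjustment over all 30668 genes tested the p was 0.481, so Gfra2 was not called. Its log2 fold change stayed between 0.58 and 0.68 when each library was left out in turn, at 0.68 without UAC replicate 1, and the adjusted p in those fits was 0.406 to 0.841. In a bulk sample a change in RNA per cell and a change in the number of cells that carry the RNA cannot be told apart. Gfra2, listed under the assembled gene MSTRG.10914, lies on chromosome 15 from 52557607 to 52648972, and no other gene, lncRNA transcript or circular RNA of the tables overlapped it.

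Of the 7 genes found, 4 passed the minimum mean of 0.1 FPKM (Ngfr, Ntrk2, Ntrk3 and Gfra2) and entered the main test. None had an adjusted p under 0.05 in edgeR, where 0.0196% of all genes tested had one. None had one in DESeq2 or limma either, where 358 and at most 3 of the 30668 genes tested had one. At an unadjusted p under 0.05, 1 of the 4 was higher in UAC (Gfra2) and 0 were lower, against 4.69% and 4.39% of all genes tested. By FPKM, the groups did not overlap for 2 of the 4, with UAC above CON for Gfra2 and below it for Ntrk3, against 9.84% and 5.87% of all genes tested. The median log2 fold change of the 4 genes was -0.28, and it was -0.002 over all genes tested. With 4 genes these shares describe the list and show nothing particular to it.

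**Figure D2:**
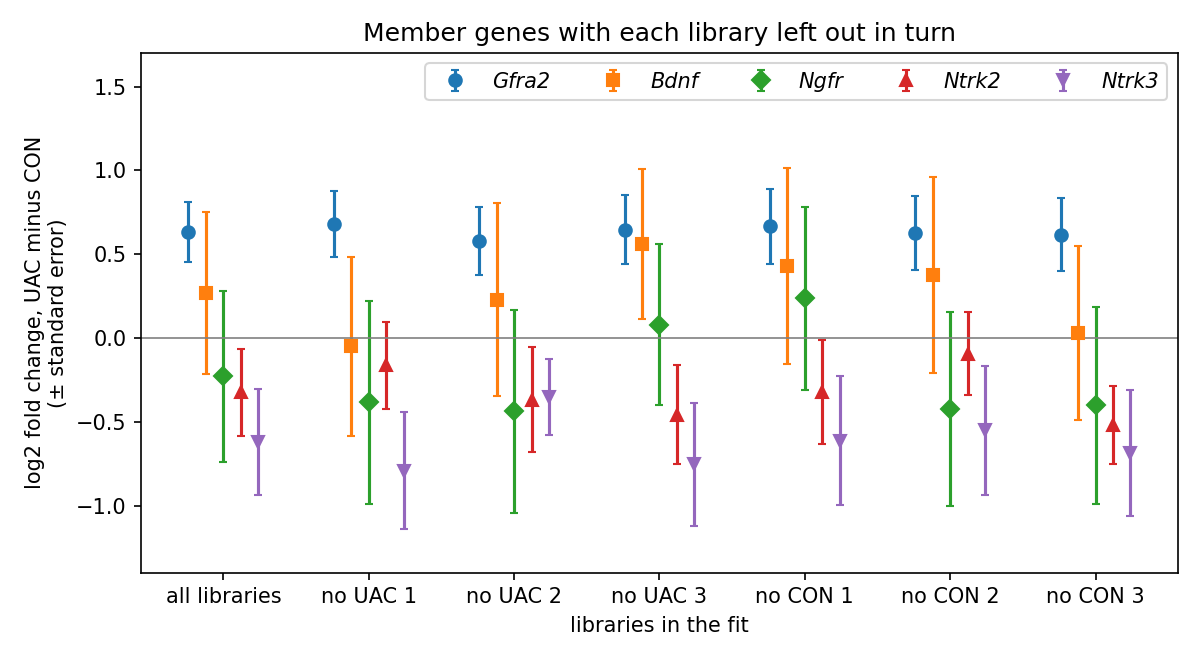
Log2 fold change of UAC minus CON with its standard error (vertical axis) for Gfra2, Bdnf, Ngfr, Ntrk2 and Ntrk3, in the fit of all libraries and in the 6 fits that leave out 1 library each. Gfra2 stays between 0.58 and 0.68 and Ntrk3 between -0.79 and -0.35, while Ngfr and Bdnf cross 0.

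The opposite directions of Gfra2 and Ntrk3 showed in their ratio. Gfra2 exceeded Ntrk3 by 1.78, 4.19 and 1.94 times per FPKM in the UAC libraries, whereas the ratio was 1.01, 0.878 and 1.04 in CON. The ratio of Ntrk2 to Ntrk3 overlapped between the groups, at 1.10, 3.15 and 1.77 in UAC and 1.44, 1.71 and 1.13 in CON. These pairs were set side by side after the values of the genes had been seen, so the ratios are a description.

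Ntf4, which encodes neurotrophin-4, another ligand of TrkB, had 0 counts in each UAC library and 8, 9 and 0 counts in CON. It lay under the minimum for the test, and no group difference can be read from these counts.

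In the GDNF family, 6 of 9 listed genes were tested, and at an unadjusted p under 0.05 there was 1 gene lower in UAC and 0 higher, where 4.39% and 4.69% of all genes tested were. That gene was Ncam1, the neural cell adhesion molecule, which can serve as a receptor for GDNF beside Ret and is also made by muscle and natural killer cells. It had 3.55, 3.40 and 3.72 FPKM in UAC and 4.38, 4.18 and 4.51 FPKM in CON, with a log2 fold change of -0.34 (SE 0.07, edgeR unadjusted p = 0.00237 and adjusted p = 0.448). DESeq2 gave it an adjusted p of 0.0180. Ret, the kinase that Gfra2 needs to signal as a receptor of neurturin, was erratic. It had 0.159, 0.0484 and 0.137 FPKM in UAC and 0.176, 0.0942 and 0.0158 FPKM in CON (log2 fold change 0.19, SE 0.81, edgeR adjusted p = 0.964). Gfra2 was therefore above Ret in every library, by 5.07, 18.1 and 5.99 times in UAC and 3.08, 5.32 and 33.0 times in CON.

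The ligands of the GDNF family overlapped between the groups. Neurturin (Nrtn), the preferred ligand of Gfra2, had 0.685, 0.355 and 0.387 FPKM in UAC and 0.623 and 0.266 FPKM in CON replicates 1 and 3, and was listed at 0 in CON replicate 2. Persephin (Pspn) was the most abundant of them, with 1.18, 0.943 and 0.885 FPKM in UAC and 0.953, 0.777 and 0.896 FPKM in CON. Artemin (Artn), the ligand of Gfra3 on nociceptors, rested on 32, 5 and 16 counts in UAC and 3, 22 and 11 in CON. Their log2 fold changes of 0.64, 0.15 and 0.65 had SEs of 1.14, 0.32 and 0.96, and the edgeR adjusted p was 0.906, 0.922 and 0.880. The value of Nrtn rested on the CON library at 0, and was 0.060 without CON replicate 2 and 1.79 without CON replicate 1. The coreceptor Gfra3 had 17, 0 and 4 counts in UAC and 7, 11 and 8 in CON, Gfral had 0, 7 and 0 in UAC and 0, 0 and 6 in CON, and Gfra4 had 0 throughout. Sdc3, a heparan sulfate proteoglycan that binds GDNF and is abundant in cartilage, was at 84.6, 71.7 and 88.6 FPKM in UAC and 85.8, 90.8 and 91.1 FPKM in CON (log2 fold change -0.17, SE 0.10, edgeR adjusted p = 0.629).

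**Figure D3:**
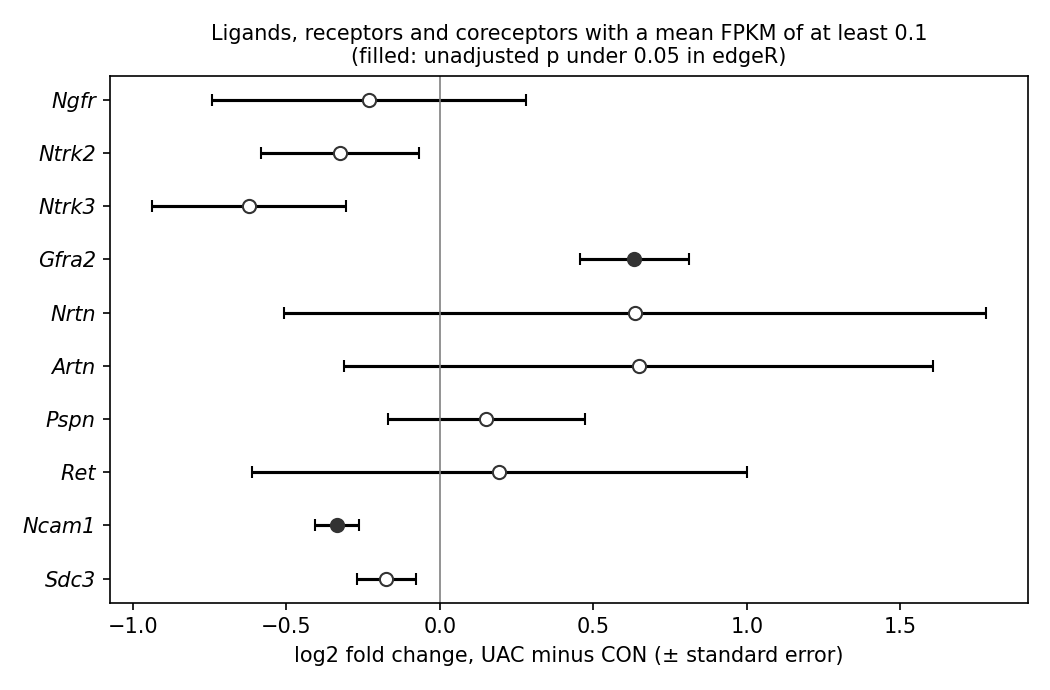
Log2 fold change of UAC minus CON with its standard error (horizontal axis) for 10 ligands, receptors and coreceptors of both families, filled where the unadjusted p was under 0.05. Gfra2 (0.63) lies above 0 and Ncam1 (-0.34) below it by several standard errors, and Nrtn, Artn and Ret have the widest errors.

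Proteins that work with Ngfr were mostly expressed at higher levels than the receptor itself. Of 12 listed sortilin family members and Ngfr partners, 9 were tested, and none (0) reached an unadjusted p under 0.05 in either direction in edgeR, where 4.69% and 4.39% of all genes tested were, so a count of 0 in 9 genes is near the background. Sort1, the sortilin that forms the receptor for precursor neurotrophins with Ngfr, was at 19.5, 18.1 and 18.9 FPKM in UAC and 17.7, 17.0 and 16.7 FPKM in CON. The groups did not overlap, but its log2 fold change was 0.09 (SE 0.07, edgeR adjusted p = 0.722). Nradd, a homolog of the p75 receptor without its ligand-binding part, had the smallest p of the list, with a log2 fold change of -0.38 (SE 0.17, edgeR adjusted p = 0.569). Maged1, an adaptor of the p75 receptor in cell death, had a log2 fold change of -0.16, Lingo1, a partner of the p75 receptor in the Nogo receptor complex, -0.44, and Kidins220, a scaffold of both receptor types, 0.24, and the edgeR adjusted p was 0.701, 0.718 and 0.719. Kidins220 depended on single libraries, at 0.040 without UAC replicate 2 and 0.41 without UAC replicate 1, where its unadjusted p from edgeR was 0.0148 and the count of the list was no longer 0.

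Of 8 listed proteases that cut neurotrophin precursors or activate such enzymes, 7 were tested. At an unadjusted p under 0.05, 2 lay lower in UAC and 0 higher (4.39% and 4.69% of all genes tested), and 0 passed the adjusted threshold in edgeR. The prohormone convertase Pcsk1, which works in the regulated secretory route, had 10.5, 7.03 and 9.48 FPKM in UAC and 13.4, 12.5 and 15.7 FPKM in CON. Its log2 fold change was -0.67 (SE 0.14, edgeR unadjusted p = 0.00240 and adjusted p = 0.448), and DESeq2 gave an adjusted p of 0.00608. Plat, the tissue plasminogen activator that turns plasminogen into a protease of proBDNF, had 4.10, 5.26 and 3.60 FPKM in UAC and 5.90, 6.50 and 5.47 FPKM in CON (log2 fold change -0.50, SE 0.18, edgeR adjusted p = 0.514). The unadjusted p of Plat from edgeR was 0.0253, and it was 0.0720 without UAC replicate 1, 0.0734 without UAC replicate 3, 0.0551 without CON replicate 1 and 0.0833 without CON replicate 2. Furin, the convertase of the secretory pathway in most cells, had a log2 fold change of -0.15 and Pcsk7 one of -0.11, and the edgeR adjusted p was 0.641 and 0.656. Over the 7 proteases the median was -0.11.

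Adaptors that carry the signal of Trk receptors, and of many other receptor kinases, gave 5 genes lower in UAC and 0 higher at an unadjusted p under 0.05, among 13 tested of 14 listed (4.39% and 4.69% of all genes tested), with a median of -0.13 on the log2 scale and no edgeR adjusted p below 0.448. Plcg1, the phospholipase C that Trk receptors activate, had 12.2, 8.65 and 10.3 FPKM in UAC and 14.1, 14.2 and 13.8 FPKM in CON. Its log2 fold change was -0.48 (SE 0.11, edgeR unadjusted p = 0.00397 and adjusted p = 0.448), and DESeq2 gave an adjusted p of 0.0288. The others were the docking protein Gab1 (log2 fold change -0.31), the Shc family members Shc2 (-0.67) and Shc1 (-0.19), and Frs2 (-1.48), a substrate shared with the FGF receptors. Frs2 did not separate the groups, since it had 1.85, 2.23 and 2.76 FPKM in UAC and 1.89, 8.46 and 8.22 FPKM in CON, with CON replicate 1 at the level of UAC, and its log2 fold change was -1.91 without that library. The count was not stable, since an unadjusted p under 0.05 was kept in 8 of 14 alternatives by Shc2, 8 of 15 by Frs2, 9 of 15 by Shc1, 14 of 15 by Gab1 and 15 of 15 by Plcg1.

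**Figure D4:**
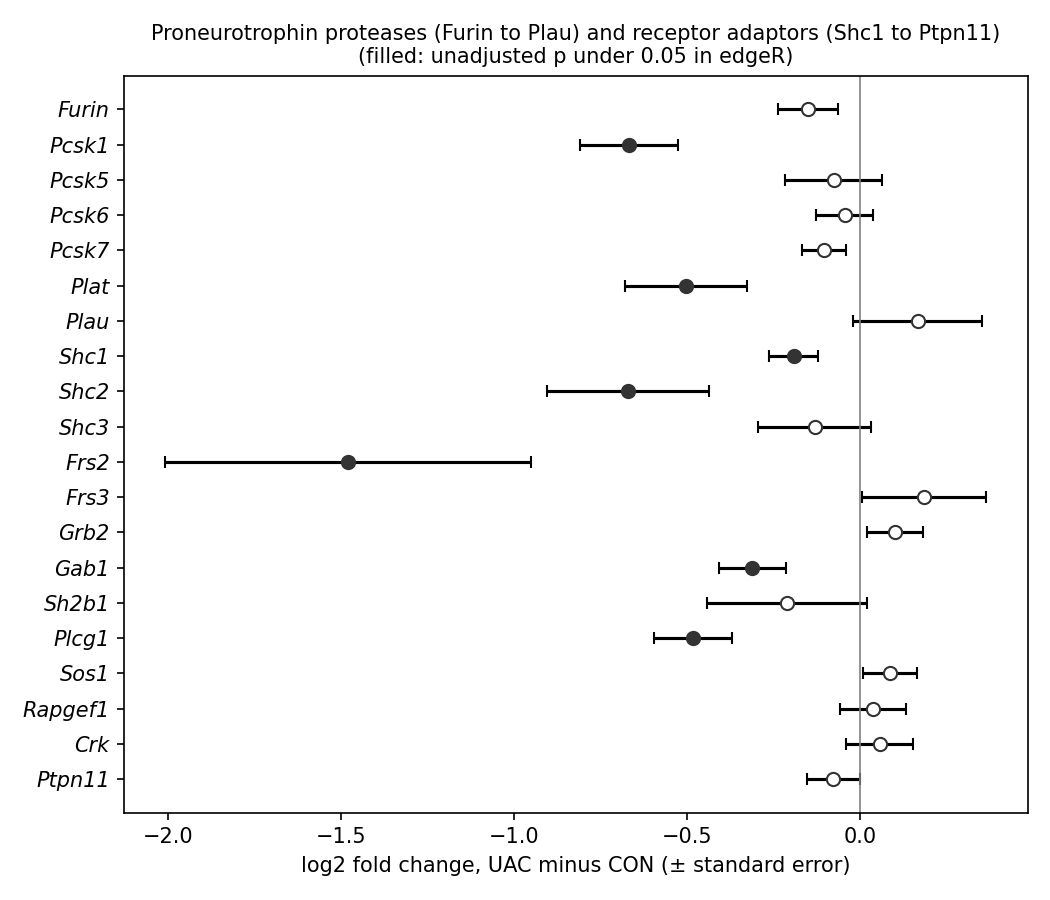
Log2 fold change of UAC minus CON with its standard error (horizontal axis) for 7 proteases of neurotrophin precursors and 13 adaptors of Trk receptors, filled where the unadjusted p was under 0.05. All 7 filled points lie below 0, from Shc1 at -0.19 to Frs2 at -1.48.

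Markers of the cells that could carry these genes were measured in the same libraries. Of 15 Schwann cell markers, all present in the table, the defining genes Cdh19 and Sox10 were at or near 0: Cdh19 had 0 counts in every library and Sox10 was at 0.0131 to 0.0307 FPKM in UAC and 0.0368 to 0.0376 FPKM in CON. The list summed to 53.0 to 72.4 FPKM in UAC and 71.8 to 92.9 FPKM in CON. S100b, which chondrocytes also make, gave 23.4 to 39.9 FPKM of this sum in UAC and 41.0 to 59.1 FPKM in CON. Without S100b the other 14 markers overlapped between the groups, at 29.7 to 32.5 FPKM in UAC and 30.9 to 33.7 FPKM in CON. S100b had a log2 fold change of -0.65 and the sodium channel gene Scn7a one of -0.46 (edgeR adjusted p = 0.524 and 0.450). These were the 2 of 10 tested Schwann cell markers that were lower in UAC at an unadjusted p under 0.05, with 0 higher (4.39% and 4.69% of all genes tested). Of 13 markers of sensory neurons and axons, Calca, the gene of the nociceptor peptide CGRP, had 0 counts in every library. That list summed to 4.61, 4.25 and 1.43 FPKM in UAC and 4.53, 5.04 and 3.93 FPKM in CON, so it was low in UAC replicate 3 and otherwise overlapped between the groups. Its 5 tested genes had log2 fold changes of -1.31 to -0.15, with a median of -0.47. At an unadjusted p under 0.05 in edgeR, 0 were lower and 0 higher (4.39% and 4.69% of all genes tested).

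Immune cell markers differed within and between lists. Among 7 macrophage markers the lysozyme gene Lyz2 made up 86.2% of the sum, and it had 1512, 986 and 1197 FPKM in UAC and 777, 687 and 881 FPKM in CON (log2 fold change 0.61, SE 0.16, edgeR adjusted p = 0.465). The other 6 summed to 139 to 158 FPKM in UAC and 163 to 185 FPKM in CON, so their sum was lower in UAC. Most of it came from the lysosomal glycoprotein gene Cd68 (mean 88.1 FPKM in UAC and 105 FPKM in CON) and the growth factor receptor gene Csf1r (39.8 and 45.2 FPKM). Their log2 fold changes were -0.30 and -0.23 (edgeR adjusted p = 0.504 and 0.494). The remaining markers did not share this direction, with log2 fold changes of 0.18 for Cd163, 0.14 for Mrc1, 0.10 for Cd14 and -0.02 for Adgre1. Among 7 markers of B and plasma cells Jchain, which joins the units of secreted antibodies, had 132, 133 and 97.1 FPKM in UAC and 41.3, 54.0 and 70.4 FPKM in CON, and Mzb1, a plasma cell gene of antibody secretion, had 7.47, 9.27 and 6.02 FPKM in UAC and 3.65, 3.83 and 4.597 FPKM in CON. Their log2 fold changes were 1.09 and 0.88 (edgeR adjusted p = 0.441 and 0.448), and those of the other 5 genes did not reach an unadjusted p under 0.05. The 6 mast cell markers summed to 14.7 to 20.9 FPKM in UAC and 12.0 to 13.2 FPKM in CON. In each UAC library 3 of them were above every CON library and 0 below, against 9.84% and 5.87% of all genes tested. These were the chymase gene Cma1 (log2 fold change 0.98), Ms4a2, a chain of the IgE receptor (0.64), and the receptor gene Kit (0.21), with edgeR adjusted p of 0.452, 0.478 and 0.569. The others, Cpa3, Hdc and Tpsb2, overlapped between the groups, with log2 fold changes of -0.002, 0.06 and 0.50. At an unadjusted p under 0.05 the counts of genes higher and lower were 1 and 2 for macrophages, 2 and 0 for B and plasma cells and 2 and 0 for mast cells, where 4.69% and 4.39% of all genes tested were.

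In the fibroblast and superficial zone list Col1a1, a collagen gene that osteoblasts also use, made up 99.4% of the sum (log2 fold change -0.30, SE 0.28, edgeR adjusted p = 0.786), and the other 7 genes overlapped at 70.3 to 86.6 FPKM in UAC and 78.5 to 97.0 FPKM in CON. The 9 osteoblast and osteocyte markers overlapped in sum, but without the osteocalcin gene Bglap the sum was lower in UAC (736 to 827 FPKM, against 950 to 1016 FPKM in CON). The largest part of it was Ibsp, with 369, 353 and 380 FPKM in UAC and 527, 517 and 545 FPKM in CON (edgeR adjusted p = 0.328). Over the 9 genes the log2 fold change ran from -0.57 (Ibsp) to 0.03, with a median of -0.15. At an unadjusted p under 0.05, 2 were lower and 0 higher, against 4.39% and 4.69% of all genes tested. The sum of the 6 marrow stroma markers overlapped between the groups. At an unadjusted p under 0.05 the list had 2 higher genes and 0 lower ones, against 4.69% and 4.39% of all genes tested. The adipocyte hormone gene Adipoq had 1.56, 0.892 and 1.23 FPKM in UAC and 0.204, 0.211 and 0.290 FPKM in CON (log2 fold change 2.32, SE 0.28, edgeR adjusted p = 0.287), and the chemokine gene Cxcl12 had 39.99, 34.20 and 30.05 FPKM in UAC and 24.0, 21.3 and 29.4 FPKM in CON (0.44, SE 0.14, edgeR adjusted p = 0.498). The endothelium and pericyte list also overlapped in sum, with a median log2 fold change of -0.20 over 8 genes. At an unadjusted p under 0.05 it had 1 lower gene and 0 higher ones, against 4.39% and 4.69% of all genes tested. The lower gene was the endothelial cadherin gene Cdh5 (-0.28, edgeR adjusted p = 0.472). No marker of these lists other than Cdh19 and Calca was at 0 in all libraries, and 4 marker genes were not analysed here. The part of these cells in the levels of Gfra2 and Ntrk3 was not tested.

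**Figure D5:**
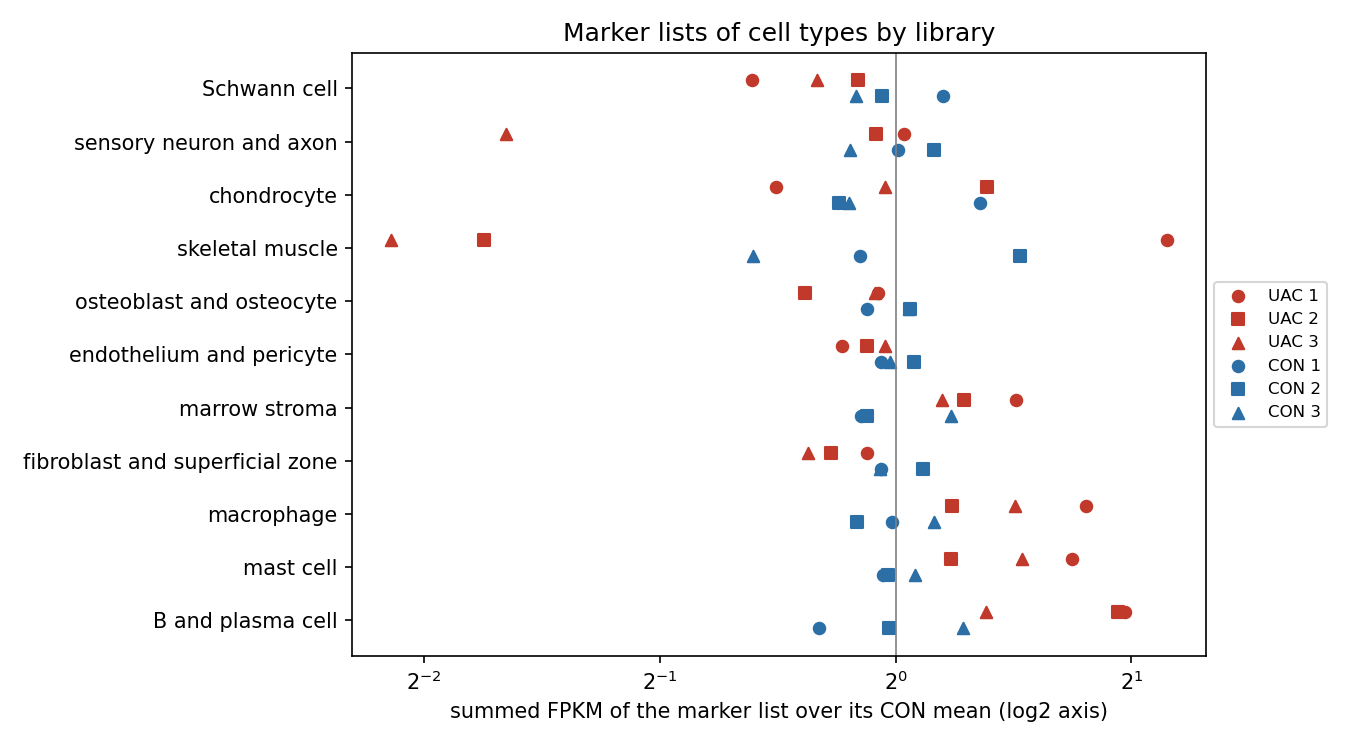
Summed FPKM of 11 cell type marker lists in each library divided by the mean of the 3 CON libraries (horizontal log2 axis), with UAC above CON in each row. The UAC points of macrophages, mast cells and B and plasma cells lie to the right of all CON points. Without the most abundant gene of each list (Lyz2, Ms4a2 and Jchain) the macrophage sum, mostly Cd68 and Csf1r, is lower in UAC. The sums of the other 2 lists then overlap. Skeletal muscle runs from 0.227 to 2.22 within UAC alone.

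The genes with the profile most like those of the 2 most abundant members were sought among 11927 protein-coding genes with a mean of at least 1 FPKM, by the root mean square difference of centred log2 levels over the 6 libraries. For Gfra2 these were Psmb9, an immunoproteasome subunit (0.0531), Egln3, a prolyl hydroxylase of the hypoxia response (0.0586), and Cebpd, a transcription factor (0.0655). For Ntrk2 they were Duox1, a dual oxidase (0.0655), Dhx35, an RNA helicase (0.0916), and Matn2, a matrilin of the extracellular matrix (0.0964). A difference of 0.15 or less was reached by 62 genes for Gfra2 and 54 for Ntrk2, so with 6 libraries many genes share each profile.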

How the data were processed

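RNA of condylar cartilage from 3 UAC and 3 CON libraries was compared as UAC minus CON. The authors trimmed reads with cutadapt (version 1.9 per the submitters' notes), mapped them with Bowtie2 and Hisat2, and assembled and quantified them with StringTie and edgeR. In the deposited gene table each gene has a whole-number count and an FPKM, the deposited lncRNA table FPKM per transcript, and the deposited circRNA table junction read counts. The sources used here do not give the mapper versions, the genome build, the strand setting or the circRNA caller. A deposited coverage signal per lncRNA transcript and a circRNA score scaled by the authors to library depth were not used.

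Each symbol was paired with its protein-coding gene of highest mean FPKM, and 154 of 161 listed genes were found, none of them through an older symbol. The 30668 genes with a mean of at least 0.1 FPKM entered the quasi-likelihood test of edgeR 4.0.16 after TMM scaling, with all 6 libraries and no covariate, and p values were adjusted by Benjamini-Hochberg over all genes tested. The SE is the unshrunk coefficient divided by the root of its F statistic. The fit was tested on simulated counts. Alternatives were median ratio factors, other filters, a robust fit, DESeq2 1.42.0, limma 3.58.1 on log2 FPKM, a replicate block and each library left out. Bdnf is under the minimum, so its values come from the fit without it, which was chosen after seeing the data.

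The members and all 17 gene lists were chosen with earlier results of these data known. Some genes of these lists are not reported here. Named genes are all members, the ligands and receptors of both families, up to 4 genes with the smallest p of each other list, and the nearest profiles. Sort1, Shc1, S100b, Scn7a and the other marker genes were named, and marker sums were repeated without their most abundant gene, after their values were seen. Nothing in the labels pairs replicate numbers across groups.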

Additional observations from a re-analysis of the deposited data

How the results depend on the processing

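Gfra2 kept its direction and an unadjusted p under 0.05 in all 14 alternatives (0.00603 to 0.0388) and an adjusted p above 0.05 in each of them (0.199 to 0.841). Ntrk2 and Ntrk3 kept their directions in all 14 as well. Over the 5 members with a fitted value, 3 of 69 alternatives turned a direction: Ngfr was 0.079 with UAC replicate 3 left out and 0.24 with CON replicate 1 left out (leave-one-out range -0.44 to 0.24), and Bdnf was -0.050 with UAC replicate 1 left out (range -0.050 to 0.56). Among the 34 other named genes that were followed through the alternatives, 3 of 503 alternatives turned a direction. Artn turned when UAC replicate 1 was left out (range -0.094 to 1.49), and Ret turned when UAC replicate 1 or CON replicate 3 was left out (range -0.30 to 0.97). The cause was not tested.

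Over the whole table edgeR called 6 genes (adjusted p under 0.05). The number called was 358 in DESeq2, 3 and 2 in limma with pseudocounts of 0.1 and 1, 2 with a minimum mean of 1 FPKM, and 5 to 14 when each library was left out, with 14 for UAC replicate 2, 11 for CON replicate 2 and 10 for CON replicate 1. With the replicate number as a replicate block edgeR called 0 genes, with 2207 at an unadjusted p under 0.05, against 2785 without the block. The deviations of same-numbered libraries from their group means correlated at -0.0163, -0.00642 and -0.0273. Those of differently numbered libraries correlated at -0.0154 to 0.0324. With 3 libraries per group these values cannot show whether the numbers pair the libraries. Of these 34 genes DESeq2 called Ncam1, Pcsk1, Plcg1, Lyz2, Jchain, Mzb1, Cma1, Ms4a2 and Adipoq, where it called 358 of all 30668 genes tested. Most of the 34 were named for a small p or after their values were seen. The number called among them is therefore no result about the lists. A minimum mean of 1 FPKM left 0 members to test, and so 0 members at an unadjusted p under 0.05, where 1 was found otherwise. Counts of 0 to 74 per library limit what can be seen for Bdnf, Ntf3, Gdnf and Ngfr.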
